A study of Homo sapiens with 24 samples.

Results

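T-cell receptor signaling genes were followed as 1 set of 39 genes out of the 25559 in the count data, chosen by symbol as members of the receptor complex, kinases, adaptors, effectors and regulators, and all 39 were found. The cells were 3 human T-cell lines: HH, from a cutaneous T-cell lymphoma, PF382, from a T-cell acute lymphoblastic leukemia, and TLOm1, from an adult T-cell leukemia. Treatment lasted 96 h and was renewed every 24 h. HH received AZA (azacitidine) at 50, 125 or 250 nM, the other lines received 125, 250 or 500 nM, and all lines received decitabine at 5, 12.5 or 25 nM, each set against untreated cells. Both drugs are cytidine analogs that deplete DNA methyltransferases, so that methylation at CG dinucleotides is lost as cells divide. Each condition had 1 RNA-seq library, giving 9 treated and 3 untreated libraries in the AZA set and as many in the decitabine set, and no dose was replicated. The labels do not state whether the doses of a line were separate cultures, so p-values reflect the spread among the libraries alone, which may be technical, and could be too small.

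The T-cell receptor recognizes antigen through a variable chain pair and signals through the CD3 chains and CD247 (CD3 zeta). The kinase LCK phosphorylates these chains, ZAP70 docks on them and phosphorylates the adaptors LAT and LCP2 (SLP-76), and the assembled scaffold recruits PLCG1, VAV1 and the exchange factors SOS1 and RASGRP1. The resulting calcium and diacylglycerol signals reach NFAT, Ras and, through PRKCQ, BCL10 and MALT1, NF-kappa-B. Phosphatases, ubiquitin ligases and inhibitory adaptors hold the cascade in check. Loss of parts of this machinery is known in T-cell malignancies.

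The libraries held 16175077 to 32496676 counts in the AZA set and 13892514 to 29793985 in the decitabine set, and levels are given as CPM, counts scaled to a library total of 1000000. Where the shallowest library shows no count, up to 3 counts (0.216 CPM) remain possible from counting error alone. Of 8 T-cell markers, CD2 was at 5.59 CPM or above in all 6 untreated libraries, whereas CD7 was under 1 CPM in untreated HH and TLOm1 and CD5 under 1 CPM in untreated TLOm1. Among 18 markers of other cell types the red cell gene HBB never exceeded 1 count, and the monocyte genes CD14 and LYZ stayed under 1 CPM, whereas the myeloid genes MPO, FCER1G and CSF1R reached 3.38, 1.37 and 2.01 CPM in treated libraries and 0.149, 0.326 and 3.74 CPM in untreated ones. The summed level of the 18 was 128 to 148 CPM in AZA-treated TLOm1, against 46.6 CPM untreated, and 44.6 to 58.5 CPM in AZA-treated PF382, against 23.6 CPM untreated, while AZA-treated HH held 5.20 to 7.17 CPM, against 6.66 CPM. With decitabine the same sum was 97.8 to 134 CPM in TLOm1, against 60.6 CPM untreated, 40.3 to 89.8 CPM in PF382, against 24.4 CPM, and 4.85 to 9.59 CPM in HH, against 5.37 CPM. Among the 18, KRT8 (up to 104 CPM), PECAM1 (71.3 CPM) and CD79A (22.5 CPM) reached the highest levels, each above the sum in any HH library. The part of the summed level in the results was not tested. The summed level of the 8 T-cell markers was 3027 to 3378 CPM in AZA-treated PF382, against 4191 CPM untreated, 311 to 322 CPM in AZA-treated TLOm1, against 363 CPM, and 1548 to 1716 CPM in AZA-treated HH, against 1398 CPM. With decitabine it was 2082 to 2813 CPM in PF382, against 3122 CPM untreated, 358 to 370 CPM in TLOm1, against 364 CPM, and 1543 to 1588 CPM in HH, against 1379 CPM.

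In untreated cells the set of 39 genes was nearly complete in PF382 and had gaps in TLOm1 and HH. A gene was called low in a line when it was under 1 CPM in both untreated libraries: 1 of the 39 genes was low in PF382, 10 in TLOm1 and 9 in HH, while 48.4%, 50% and 51% of all 25559 genes were low in PF382, TLOm1 and HH. Of the 39 genes, 27 were low in no line, 5 in 1 line, 6 in 2 lines and 1 in all 3. In bulk RNA, fewer cells expressing a gene and less RNA per cell cannot be told apart.

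**Figure D1:**
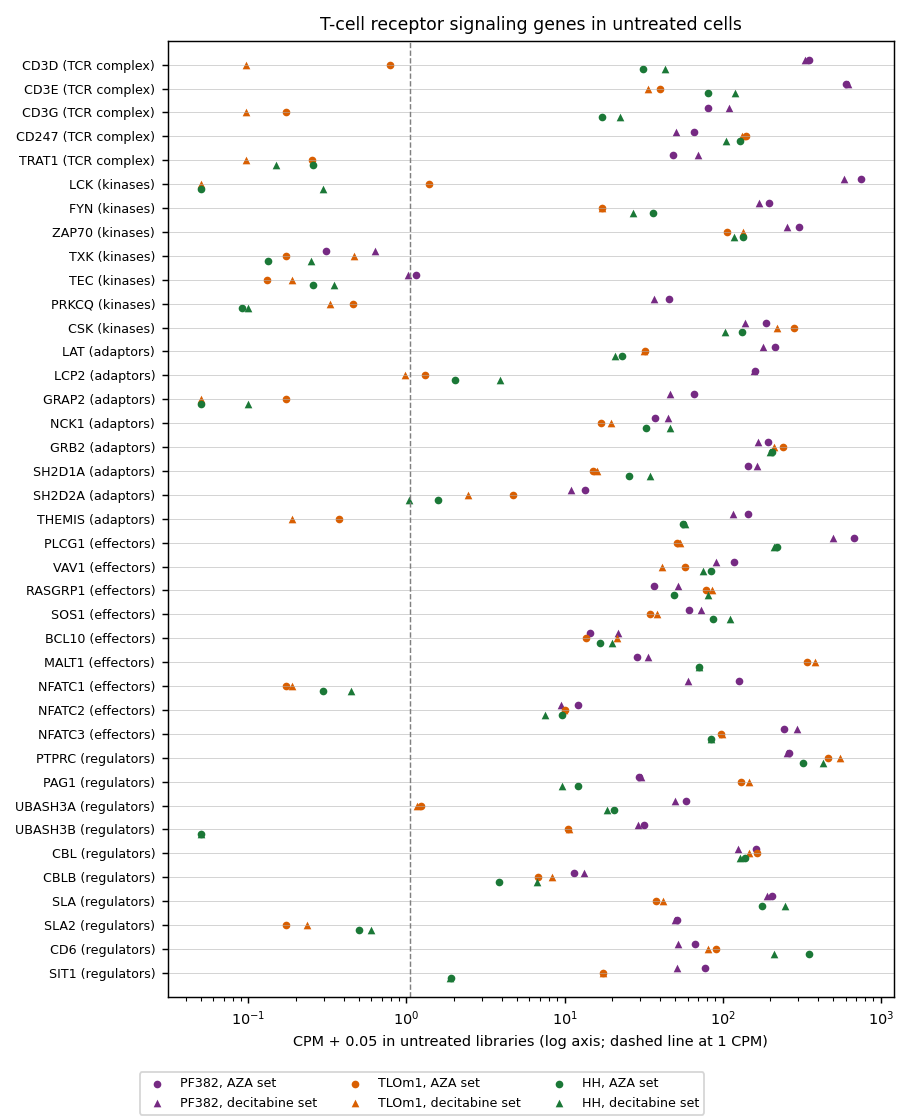
Untreated levels of the 39 genes in CPM plus 0.05 on a log axis, 1 point per library, with PF382 in purple, TLOm1 in orange and HH in green, circles for the AZA set and triangles for the decitabine set. In PF382 only TXK is under 1 CPM in both libraries, whereas 10 genes lie left of the dashed 1 CPM line with both points in TLOm1 and 9 in HH.

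Within the receptor complex, the CD3 chains that pair with the antigen-binding chains differed most in TLOm1. CD3D was at 352 and 334 CPM in untreated PF382, at 0.731 and 0.0463 CPM in TLOm1 and at 31.5 and 43.0 CPM in HH. CD3G was at 80.6 and 110 CPM in PF382, at 0.122 and 0.0463 CPM in TLOm1 and at 17.3 and 22.4 CPM in HH. CD3E, the third CD3 chain, was kept in TLOm1 at 39.9 and 33.5 CPM, beside 602 and 624 CPM in PF382 and 80.9 and 120 CPM in HH. TLOm1 therefore held RNA for CD3E and CD247 with almost none for CD3D and CD3G. CD247 ran the other way and was lower in PF382 (65.9 and 50.6 CPM) than in TLOm1 (141 and 132 CPM) and HH (129 and 105 CPM). TRAT1, which stabilizes the receptor at the surface, was at 48.7 and 69.7 CPM in PF382 and at no more than 0.206 CPM in untreated TLOm1 and HH.

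Among the kinases, LCK was at 748 and 589 CPM in untreated PF382, at 1.34 and 0 CPM in TLOm1 and at 0 and 0.248 CPM in HH. LCK starts the cascade, and its counts were 33 and 0 in untreated TLOm1 and 5 in all in untreated HH. FYN, the related Src-family kinase, was present in all lines at 196 and 169 CPM in PF382, 17.2 and 17.3 CPM in TLOm1 and 36.0 and 27.2 CPM in HH. ZAP70 was at 304 and 255 CPM in PF382, 107 and 134 CPM in TLOm1 and 135 and 118 CPM in HH. PRKCQ, the diacylglycerol-activated kinase that leads to NF-kappa-B, was at 45.4 and 36.9 CPM in PF382, at 0.406 and 0.278 CPM in TLOm1 and at 0.0411 and 0.0497 CPM in HH. The Tec-family kinases TXK and TEC were scarce throughout, TXK at no more than 0.586 CPM and TEC at no more than 1.09 CPM in any untreated library. CSK, which restrains Src-family kinases, was above 104 CPM in all 6.

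Of the adaptors, GRAP2 (GADS), which links LAT to LCP2, was at 65.6 and 46.1 CPM in untreated PF382 and held 3 counts in all in TLOm1 and 1 in HH. LCP2 itself was at 159 and 158 CPM in PF382, 1.26 and 0.926 CPM in TLOm1 and 1.97 and 3.83 CPM in HH. THEMIS, an adaptor that tunes receptor signals in thymocytes, was at 145 and 117 CPM in PF382, 0.325 and 0.139 CPM in TLOm1 and 56.0 and 58.1 CPM in HH. LAT was present in all lines, at 214 and 180 CPM in PF382, 32.3 and 31.6 CPM in TLOm1 and 23.2 and 20.7 CPM in HH. Among effectors and regulators the gaps were NFATC1 (126 and 60.1 CPM in PF382, no more than 0.398 CPM elsewhere), the inhibitory adaptor SLA2 (51.1 and 49.9 CPM in PF382, no more than 0.547 CPM elsewhere) and, in HH only, the phosphatase UBASH3B, which had 0 counts there, 31.9 and 29.3 CPM in PF382 and 10.5 and 10.6 CPM in TLOm1. PLCG1, VAV1, SOS1, RASGRP1, BCL10, MALT1, NFATC2, NFATC3, PTPRC, CBL and CD6 were above 7 CPM in all 6 untreated libraries.

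Tested over the 6 untreated libraries with edgeR's quasi-likelihood test and Benjamini-Hochberg adjustment, 25 of 38 genes were higher and 7 lower in PF382 than in HH, where 34.4% and 32% of 15501 genes tested were. In TLOm1, 9 were higher and 15 lower than in HH, against 28.1% and 27.6% of all genes. In PF382, 26 were higher and 8 lower than in TLOm1, against 33.9% and 33.3%. The median log2 difference of the 38 was 1.27 for PF382 minus HH and 1.68 for PF382 minus TLOm1, against 0.03 and 0.01 over all genes tested, and -0.12 for TLOm1 minus HH, against 0.01. A wider list of 47 other T-cell receptor pathway genes leaned the other way in PF382, beside the same shares of all genes. In PF382, 14 of the 47 were higher and 23 lower than in HH (median -0.30), and 14 higher and 26 lower than in TLOm1 (median -0.54). In TLOm1, 13 were higher and 18 lower than in HH (median -0.12). FYN was 3.24 (SE 0.14) higher on the log2 scale in PF382 than in TLOm1 (adjusted p = 5.63e-09), and PLCG1 3.32 (SE 0.15) higher (adjusted p = 1.46e-08). MALT1, the paracaspase of the NF-kappa-B branch, was the reverse, at -3.71 (SE 0.12, adjusted p = 8.45e-10), with 28.8 and 33.5 CPM in PF382 and 339 and 385 CPM in TLOm1. PAG1, which tethers CSK at the membrane, was likewise lower in PF382 than in TLOm1, at -2.39 (SE 0.14, adjusted p = 7.41e-08). BCL10, NFATC2 and CBL passed none of these 3 comparisons. The untreated libraries of the decitabine set also differed from those of the AZA set: 0 of 38 genes were higher and 4 (CSK, VAV1, NFATC1 and CD6) lower, against 5.59% and 5.03% of all genes, so each drug was read against its own untreated libraries.

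On dose rank with AZA, LAT and CBL rose, and THEMIS, GRAP2, RASGRP1, SIT1, UBASH3A and CD247 fell. In a fit of the log2 level on dose rank (0 for untreated to 3 for the highest dose) with line as a block, 2 of 38 genes rose and 6 fell, against 12% and 9.39% of 16107 genes tested. The median slope of the 38 genes was -0.03, against 0.01 over all genes tested. Of the 8 T-cell markers, GATA3 rose by 0.11 (adjusted p = 0.0283) and BCL11B (-0.11, adjusted p = 0.0188), LEF1 (-0.12, adjusted p = 0.0228) and CD28 (-0.26, adjusted p = 0.0483) fell on the same scale, and their part in the slopes of the 38 genes was not tested. LAT had 23.2, 34.3, 47.4 and 49.7 CPM in HH from untreated to 250 nM, 214, 309, 342 and 443 CPM in PF382 and 32.3, 61.7, 84.9 and 86.8 CPM in TLOm1, both from untreated to 500 nM. Each of the 9 treated libraries was above its own untreated one, and the ratio of the highest dose to untreated was 2.15 for HH, 2.07 for PF382 and 2.68 for TLOm1. The slope was 0.38 per dose step (SE 0.05, adjusted p = 0.000433). CBL, a ubiquitin ligase that targets activated receptors for degradation, rose by less, at 0.09 per step (SE 0.02, adjusted p = 0.00519), with all 9 treated libraries above untreated, and lost its call without TLOm1 (adjusted p = 0.0559).

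THEMIS fell by 0.51 per step (SE 0.09, adjusted p = 0.00229) and RASGRP1, the diacylglycerol-dependent activator of Ras, by 0.40 (SE 0.07, adjusted p = 0.00199). THEMIS had 56.0, 56.0, 43.5 and 29.7 CPM in HH and 145, 62.3, 45.3 and 33.8 CPM in PF382 in order of dose, and no more than 0.339 CPM in TLOm1. RASGRP1 had 49.1, 42.6, 39.9 and 29.2 CPM in HH, 36.8, 20.1, 12.1 and 9.37 CPM in PF382 and 78.5, 65.3, 52.5 and 44.2 CPM in TLOm1. RASGRP1 thus declined at each step in every line, whereas the lowest dose left THEMIS level in HH. GRAP2 fell by 0.36 (SE 0.09, adjusted p = 0.0241), a slope that rests on PF382 alone, where it had 65.6, 48.5, 39.0 and 33.5 CPM. The calls of LAT, THEMIS and RASGRP1 were kept in each of 19 alternative fits, although without PF382 the slopes were -0.29 for THEMIS (adjusted p = 0.0293) and -0.26 for RASGRP1 (adjusted p = 0.00094). GRAP2 lost its call without the PF382 untreated (adjusted p = 0.167), 125 nM (0.0508), 250 nM (0.0591) or 500 nM (0.0800) library.

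Smaller slopes passed for SIT1, an inhibitory transmembrane adaptor (-0.25, SE 0.06, adjusted p = 0.0188), UBASH3A, a suppressor of receptor signaling (-0.17, SE 0.05, adjusted p = 0.0264), and CD247 (-0.07, SE 0.02, adjusted p = 0.0282). SIT1 had 17.6, 15, 10.8 and 6.79 CPM in TLOm1 and 77.6, 61.2, 62.0 and 60.3 CPM in PF382, but 1.85, 2.47, 2.18 and 1.29 CPM in HH. UBASH3A had 59.0, 52.9, 47.9 and 40.9 CPM in PF382 and all 9 treated libraries below untreated. CD247 was also below untreated in all 9, and in TLOm1 it had 141, 129, 123 and 111 CPM. SIT1 lost its call without the TLOm1 untreated (adjusted p = 0.0706) or 500 nM (0.0540) library, and UBASH3A without the PF382 untreated (0.0673) or 500 nM (0.0893) library. CD247 lost it without the HH untreated (0.0799), HH 125 nM (0.0514), PF382 500 nM (0.0613), TLOm1 untreated (0.0892) or TLOm1 500 nM (0.0889) library. Without TLOm1 the slopes were -0.13 for SIT1 (adjusted p = 0.150), -0.13 for UBASH3A (0.0663) and -0.06 for CD247 (0.215), and without PF382 they were -0.17 for UBASH3A (0.179) and -0.08 for CD247 (0.0702), so that none of these passed.

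**Figure D2:**
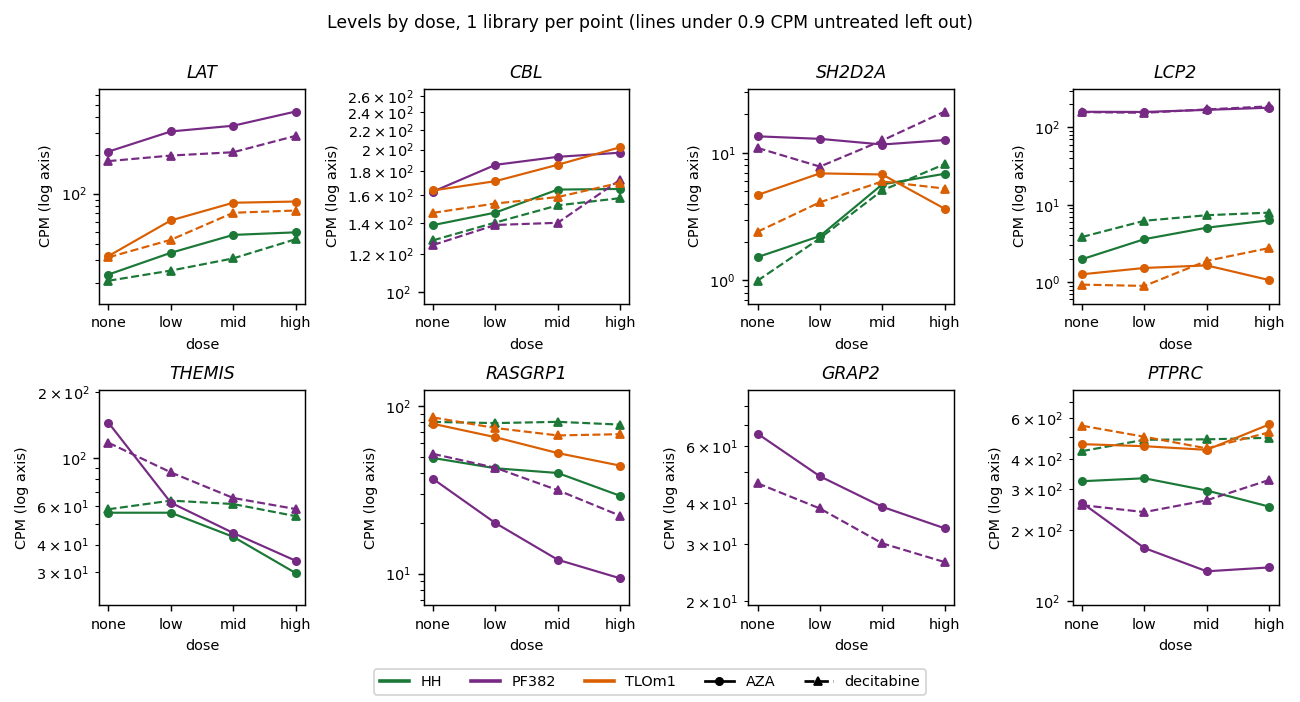
Level in CPM (log axis, scaled for each gene) against dose for 8 genes, 1 library per point, from untreated (none) to the highest dose, with AZA as solid lines and circles, decitabine as dashed lines and triangles, and lines of cells under 0.9 CPM untreated left out. LAT climbs in all 6 series, whereas RASGRP1 declines at each AZA step in each line and GRAP2 is drawn for PF382 only.

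Among the 9 AZA-treated libraries alone, where the untreated libraries play no part, the slope per doubling of dose was 0.24 for LAT (SE 0.04, adjusted p = 0.00418), 0.26 for the ubiquitin ligase CBLB (SE 0.07, adjusted p = 0.0406), -0.40 for THEMIS (SE 0.06, adjusted p = 0.00453) and -0.34 for RASGRP1 (SE 0.06, adjusted p = 0.00662). These 2 rises and 2 falls among 38 genes stood beside 8.04% and 6.19% of 16450 genes. In order of dose, CBLB had 11.5, 13.1 and 17.9 CPM in PF382, against 11.4 CPM untreated. In TLOm1 CBLB had 5.39, 5.79 and 9.21 CPM, against 6.75 CPM untreated, and was thus above untreated at 500 nM only. The CBLB call was lost in 9 of 16 alternative fits, among them those without any 1 of the 3 PF382 libraries (adjusted p = 0.106, 0.0814 and 0.132 without 125, 250 and 500 nM), any 1 of the 3 TLOm1 libraries (0.117, 0.0616 and 0.115) or the HH 125 nM library (0.0716). THEMIS lost its call without PF382 (0.0606) and RASGRP1 without TLOm1 (0.0518). With all doses pooled, the 9 AZA-treated libraries against the 3 untreated gave 1 call among 38 genes, LAT at 0.97 (SE 0.16, adjusted p = 0.0255), and 8 genes at an unadjusted p under 0.05, where 20.9% of all genes were. Over 16554 genes, 0.755% were higher and 0.248% lower. The LAT call was lost without the HH untreated (adjusted p = 0.0703), HH 125 nM (0.0596), PF382 250 nM (0.0599), TLOm1 untreated (0.118) or TLOm1 250 nM (0.0684) library, with the change staying between 0.81 and 1.10 over the 21 alternatives.

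Promoters of 4 genes are printed because the drugs lead to loss of methylation at CG dinucleotides. These genes cover a rise by dose (LAT), falls by dose (THEMIS and RASGRP1) and a kinase at no more than 1.34 CPM in untreated HH and TLOm1 (LCK). Each promoter is the 250 bases before the RefSeq transcript start on build GRCh38.p14, in the direction of transcription, with CG in capitals. The LAT promoter (chr16:28984553-28984802, plus strand) held 6 CG, the THEMIS promoter (chr6:127855189-127855438, minus strand) 0, the RASGRP1 promoter (chr15:38564815-38565064, minus strand) 28 and the LCK promoter (chr1:32251015-32251264, plus strand) 7.
LAT: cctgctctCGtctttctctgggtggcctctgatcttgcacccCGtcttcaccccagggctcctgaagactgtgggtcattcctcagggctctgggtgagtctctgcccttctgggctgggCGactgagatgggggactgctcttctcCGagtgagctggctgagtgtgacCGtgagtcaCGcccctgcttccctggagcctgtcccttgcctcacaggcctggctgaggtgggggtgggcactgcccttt
THEMIS: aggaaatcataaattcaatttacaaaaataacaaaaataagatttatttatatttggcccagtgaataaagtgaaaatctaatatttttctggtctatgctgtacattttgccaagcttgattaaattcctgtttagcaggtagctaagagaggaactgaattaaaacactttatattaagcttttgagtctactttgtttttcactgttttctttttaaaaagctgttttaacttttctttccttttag
RASGRP1: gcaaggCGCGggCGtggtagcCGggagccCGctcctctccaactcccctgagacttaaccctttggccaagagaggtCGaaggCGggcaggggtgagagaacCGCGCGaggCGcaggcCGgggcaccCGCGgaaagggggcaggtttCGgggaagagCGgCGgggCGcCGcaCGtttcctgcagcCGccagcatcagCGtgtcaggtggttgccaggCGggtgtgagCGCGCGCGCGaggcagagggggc
LCK: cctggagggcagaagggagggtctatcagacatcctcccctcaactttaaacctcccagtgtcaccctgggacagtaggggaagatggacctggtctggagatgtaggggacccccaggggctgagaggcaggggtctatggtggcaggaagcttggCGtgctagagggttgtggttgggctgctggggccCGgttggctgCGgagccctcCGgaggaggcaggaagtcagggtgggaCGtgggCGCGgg
CG reads the same on both strands, and at least as many CG stood in 76.6% of 14032 promoters of counted genes for LAT, in all for THEMIS, in 20.6% for RASGRP1 and in 74.3% for LCK. A RefSeq promoter was found for 30 of the 39 genes, with a median of 7 CG against 17 over the 14032. The 10 of them that were low in at least 1 untreated line had a median of 5.5 CG and the other 20 a median of 7.5. A single RefSeq window was taken per gene. Bases just after the start were found at the beginning of a GENCODE transcript of the gene for 61.8% of 13838 windows compared. Whether the printed windows, among them that of THEMIS, precede the starts used in these cells was not tested. No methylation data accompany the RNA.

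With decitabine, LAT rose again, together with SH2D2A and LCP2, and THEMIS, RASGRP1 and GRAP2 fell again. On dose rank, 4 of 39 genes rose and 4 fell, against 8.6% and 5.38% of 15892 genes, with a median slope of 0.01 for the 39 and 0.01 over all genes tested. Of the T-cell markers GATA3 rose by 0.20 (adjusted p = 0.0114) and the other 7 did not pass. LAT had 20.7, 24.9, 31.0 and 43.8 CPM in HH from untreated to 25 nM, 180, 199, 212 and 285 CPM in PF382 and 31.6, 43.4, 70.8 and 73.7 CPM in TLOm1. All 9 treated libraries were above untreated, and the slope was 0.31 (SE 0.04, adjusted p = 0.000661). SH2D2A (TSAd), an adaptor that binds LCK, rose by 0.52 per step (SE 0.11, adjusted p = 0.00864), with 0.994, 2.14, 5.08 and 8.15 CPM in HH, 10.9, 7.81, 12.5 and 21.1 CPM in PF382 and 2.41, 4.10, 5.97 and 5.25 CPM in TLOm1. HH and PF382 peaked at the highest dose and TLOm1 at the middle one. CBL rose by 0.09 (SE 0.02, adjusted p = 0.00512) with all 9 treated libraries above untreated. LCP2 rose by 0.20 (SE 0.06, adjusted p = 0.0497), with 3.83, 6.20, 7.32 and 7.90 CPM in HH, 0.926, 0.891, 1.88 and 2.75 CPM in TLOm1 and 158, 155, 171 and 187 CPM in PF382.

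THEMIS fell by 0.21 per step with decitabine (SE 0.05, adjusted p = 0.0161), with 117, 85.7, 65.4 and 58.2 CPM in PF382 and 58.1, 63.6, 61.4 and 54.0 CPM in HH. The decline was thus in PF382: the slope was -0.05 without that line (adjusted p = 0.495), -0.13 without its untreated library and -0.37 without HH (adjusted p = 0.00195). GRAP2 fell by 0.29 (SE 0.09, adjusted p = 0.0395), again in PF382 alone, with 46.1, 38.6, 30.1 and 26.3 CPM. RASGRP1 fell by 0.18 (SE 0.05, adjusted p = 0.0399), with 51.9, 42.9, 31.5 and 22.2 CPM in PF382, 85.7, 74.1, 66.9 and 68.1 CPM in TLOm1 and 80.6, 79.3, 80.7 and 77.6 CPM in HH. The order of dose was complete in PF382 and nearly absent in HH, and the slope was -0.07 without PF382 (adjusted p = 0.0964), -0.12 without PF382 25 nM and -0.21 without TLOm1 (adjusted p = 0.113). FYN fell by 0.10 (SE 0.03, adjusted p = 0.0499) and was below untreated in all 9 treated libraries. With AZA, FYN was at 15.5, 21.9 and 32.6 CPM in TLOm1, against 17.2 CPM untreated. In AZA-treated PF382 FYN was at 152, 168 and 239 CPM, against 196 CPM, and in HH at 29.2, 24.7 and 21.1 CPM, against 36.0 CPM. On decitabine dose rank, LAT kept its call in each of 19 alternative fits, and SH2D2A and CBL in 18, each losing it without HH (adjusted p = 0.0603, with a slope of 0.34, for SH2D2A and 0.0572 for CBL). The LCP2 slope was 0.42 without PF382 (adjusted p = 0.00884), 0.13 without TLOm1 (0.0954) and 0.12 by limma-voom (0.0780). The calls were lost in 14 of 19 fits for LCP2, 12 of 19 for FYN, 11 of 19 for RASGRP1, 7 of 18 for GRAP2 and 4 of 19 for THEMIS. Among single libraries, LCP2 lost it without any of the 4 HH libraries, PF382 5 or 12.5 nM, or TLOm1 untreated, 12.5 or 25 nM (adjusted p of 0.0647 to 0.128), and FYN without any of the HH or PF382 libraries or TLOm1 untreated (0.0528 to 0.166). RASGRP1 lost it without HH 5 or 12.5 nM, any PF382 library, or TLOm1 untreated, 5 or 12.5 nM (0.0502 to 0.116), GRAP2 without HH untreated, any PF382 library or TLOm1 5 nM (0.0522 to 0.259), and THEMIS without PF382 untreated (0.108) or 25 nM (0.0910).

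**Figure D3:**
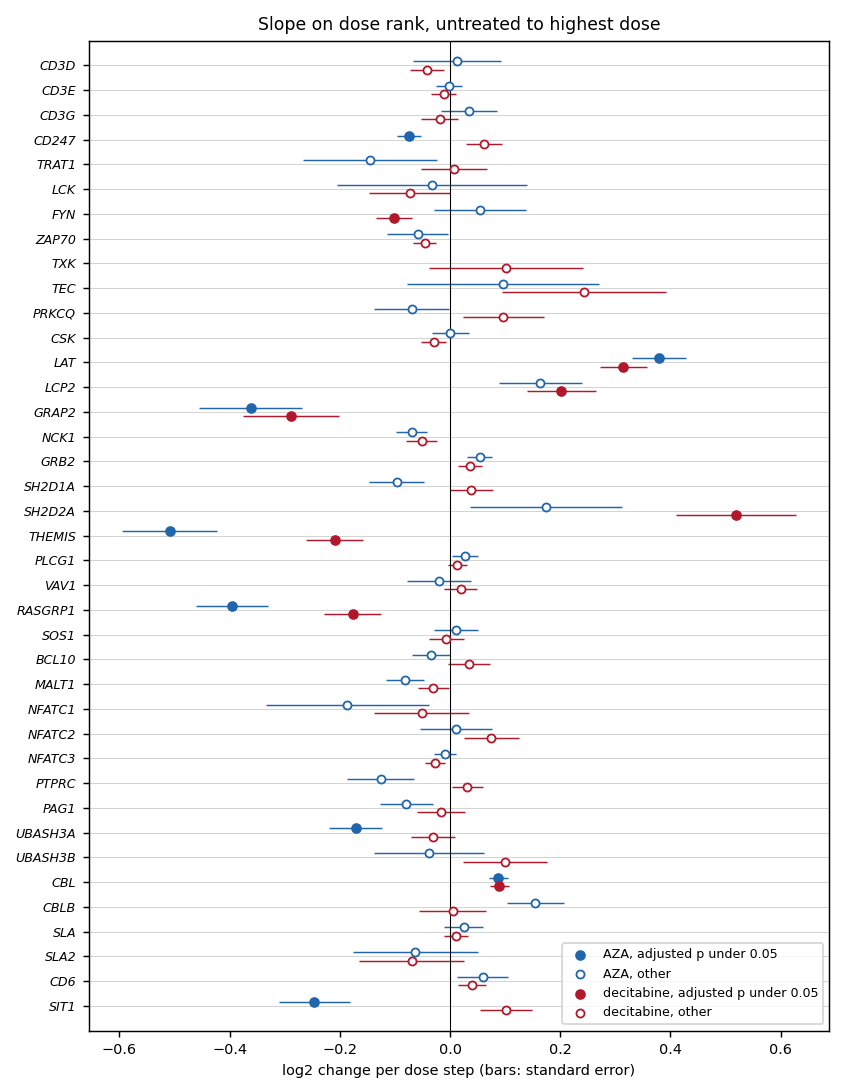
Slope of the log2 level per dose step for each gene, with bars for the standard error, AZA in blue and decitabine in red, and filled points for an adjusted p under 0.05. LAT lies right of 0 with both drugs (0.38 and 0.31), and THEMIS, RASGRP1 and GRAP2 lie left of 0 with both.

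Of the 8 genes called on dose rank with AZA and the 8 with decitabine, 5 were called with both (LAT, CBL, THEMIS, GRAP2 and RASGRP1), 5 in the same direction. The doses of the drugs were not matched, so their slopes are given side by side and were not compared. Among the 9 decitabine-treated libraries alone, LAT (0.28 per doubling, SE 0.05, adjusted p = 0.00765) and SH2D2A (0.51, SE 0.10, adjusted p = 0.0164) rose and THEMIS (-0.19, SE 0.04, adjusted p = 0.0289) fell, 2 and 1 of 39 against 2.6% and 0.991% of 16248 genes. LAT lost this call only without HH (adjusted p = 0.0876). SH2D2A lost it without HH 5 nM (0.0600) or 25 nM (0.0637) or PF382 5 nM (0.0677), 12.5 nM (0.0540) or 25 nM (0.0714), and THEMIS without HH 12.5 nM (0.0610) or 25 nM (0.0640) or PF382 5 nM (0.283, at -0.12), 12.5 nM (0.0771) or 25 nM (0.159). Without PF382 the THEMIS slope was -0.11 (0.372). With all doses pooled, edgeR called 0 of 39 genes, where 0% of 16354 genes were higher and 0% lower. At an unadjusted p under 0.05 there were 6 of the 39, against 15.8% of all genes, DESeq2 called 1, against 2.84%, and limma-voom 0, against 0.0734%.

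Within single lines, each with 1 untreated library per drug, AZA changed 3 of 39 genes in PF382, all lower, against 0.83% of 17841 genes in either direction. PTPRC (CD45), the phosphatase that primes LCK, fell to 168, 134 and 139 CPM at 125, 250 and 500 nM, against 261 CPM untreated, a log2 change of -0.87 (SE 0.16, adjusted p = 0.0151). THEMIS changed by -1.65 (SE 0.30, adjusted p = 0.0151). SH2D1A (SAP), an adaptor of SLAM-family receptors, fell to 111, 94.2 and 80.4 CPM, against 145 CPM untreated, by -0.64 (SE 0.14, adjusted p = 0.0452). PTPRC with decitabine in PF382 was at 239, 268 and 327 CPM, against 256 CPM untreated. All 3 calls were lost without the PF382 250 nM library (adjusted p = 0.0586 for PTPRC, 0.0578 for THEMIS and 0.123 for SH2D1A), and those of PTPRC (0.0566) and SH2D1A (0.0995) without 500 nM. SH2D1A also lost its call without HH 50 or 125 nM AZA, TLOm1 250 nM AZA, HH or PF382 12.5 nM decitabine, or any TLOm1 decitabine dose (adjusted p of 0.0528 to 0.0689).

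In TLOm1, AZA gave 2 calls among 39, both lower, against 0.998% of 17841 genes: CD3D at -3.30 (SE 0.61, adjusted p = 0.0226) and LCK at -4.46 (SE 0.81, adjusted p = 0.0268). Both sat at trace level. CD3D had 0, 3 and 2 counts at 125, 250 and 500 nM, against 18 untreated, and LCK had 0, 3 and 1 counts, against 33 untreated. The untreated TLOm1 library of the decitabine set held 1 count of CD3D and 0 of LCK. In the AZA-set untreated library, 57 genes chosen after the values were seen, for at least 50 CPM in untreated PF382 and at most 1 count in the other untreated TLOm1 library, stood at a median of 0.172% of their PF382 level, CD3D at 0.208% and LCK at 0.179%. CD3D and LCK meet this rule themselves and are among the 57, so the median and their levels are not separate observations. The same median was 0%, 0.0621% and 0.140% at 125, 250 and 500 nM. The summed level of the 57 was 0.189% of their PF382 sum in that untreated library. At 125, 250 and 500 nM it was 0.0897%, 0.410% and 1.37%, so the sum was above untreated at 250 and 500 nM. The T-cell marker TCF7 also fell in AZA-treated TLOm1, with a log2 change of -3.41 (SE 0.50, adjusted p = 0.0141), with 5, 10 and 8 counts at 125, 250 and 500 nM, against 85 untreated, and 4 in the other untreated library, whereas CD5 rose by 1.87 (SE 0.37, adjusted p = 0.0303). The part of these levels in the CD3D and LCK calls was not tested. With both untreated libraries of the line as controls the changes were -2.45 for CD3D (adjusted p = 0.0607) and -3.53 for LCK (adjusted p = 0.0782). Both calls were lost without the 500 nM library (0.0503 and 0.0699), and that of LCK without 250 nM (0.0546).

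In HH, edgeR called 0 of 39 genes with AZA, where 0% of 17841 genes were called, with 11 of the 39 at an unadjusted p under 0.05, against 11% of all genes, and 1 called by DESeq2, against 1.42%. LCP2 in HH was at 3.59, 5.05 and 6.29 CPM with AZA, against 1.97 CPM untreated, and SH2D2A at 2.23, 5.66 and 6.85 CPM, against 1.52 CPM. With decitabine edgeR and DESeq2 both called 0 of 39 genes in each line, where the share of all genes called by edgeR was 0% for HH, 0.258% for PF382 and 0% for TLOm1. DESeq2 called 0.291%, 2.36% and 0.538% of all genes in HH, PF382 and TLOm1. In each line 2 of the 39 were at an unadjusted p under 0.05, against 7.74%, 14.1% and 8.26% of all genes in the same order of lines. The effect of AZA differed between lines for 0 of 39 genes by edgeR, against 0.146% of all genes, with 12 at an unadjusted p under 0.05, against 10.7% of all genes, and 8 by DESeq2, against 2.23%. For decitabine it was 0 of 39 by both tools, against 0.00561% by edgeR and 0.701% by DESeq2, with 1 at an unadjusted p under 0.05, against 8.3%. The calls of PTPRC, SH2D1A, CD3D and LCK in 1 line are therefore not shown to be particular to that line.

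**Figure D4:**
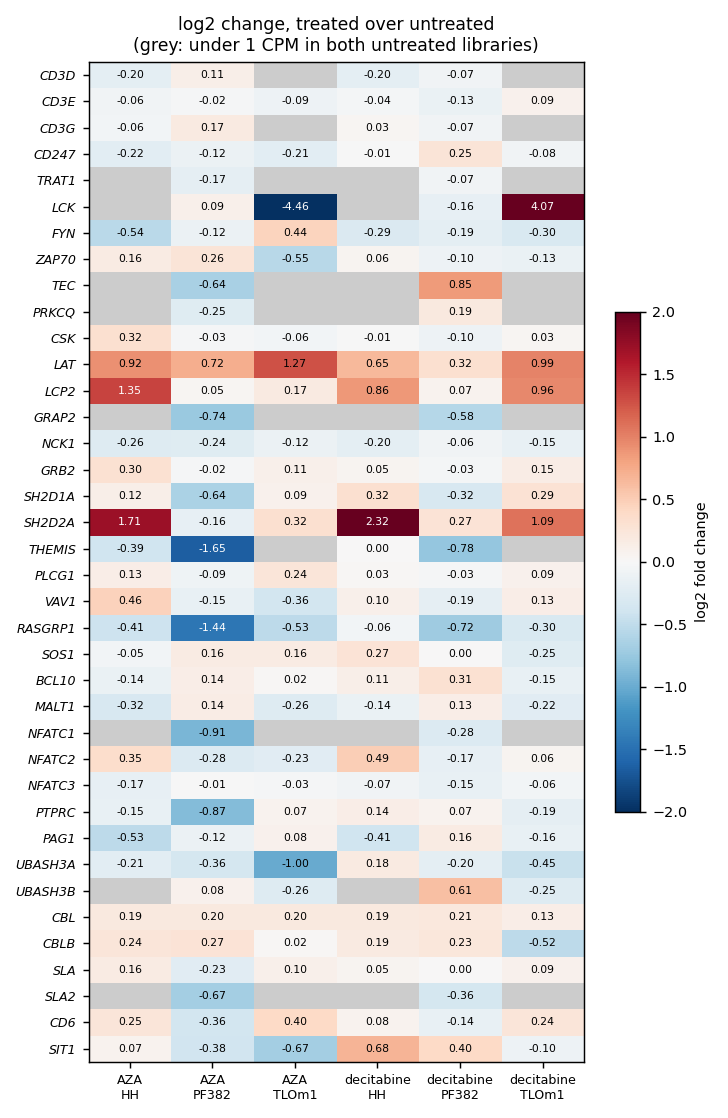
Log2 change of the treated libraries over the untreated library of the same line and set, by gene and line, with AZA in the left 3 columns and decitabine in the right 3, red for higher and blue for lower in treated cells, colors ending at 2 and -2, and grey for genes under 1 CPM in both untreated libraries of the line. LAT is red in all 6 columns, and the dark LCK cells of TLOm1 (-4.46 with AZA) rest on no more than 33 counts in any library.

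TXK and TEC aside, which were scarce in every line, none of the genes that were low in HH or TLOm1 came near its PF382 level after treatment. LCK reached no more than 0.646 CPM in any treated HH or TLOm1 library, CD3D no more than 0.123 CPM and CD3G no more than 0.0848 CPM in treated TLOm1, and GRAP2 no more than 0.0847 CPM in either line. UBASH3B, with 0 counts in both untreated HH libraries, was at 0.309, 0.0308 and 0.242 CPM with AZA and at 0, 0.168 and 0.149 CPM with decitabine. NFATC1 in HH was at 0.371, 0.80 and 1.09 CPM with AZA, against 0.247 CPM untreated, and at 0.156, 0.894 and 0.845 CPM with decitabine, against 0.398 CPM. TLOm1 and HH thus stayed far below PF382 for these genes at each dose.

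In all, 16 of the 39 genes (41%) were called in at least 1 of 14 treatment tests, as were 29.9% of the 17843 genes tested in at least 1 of them. The 15 uncalled genes that were low in no line (CD3E, ZAP70, CSK, NCK1, GRB2, PLCG1, VAV1, SOS1, BCL10, MALT1, NFATC2, NFATC3, PAG1, SLA and CD6) had treated levels of 0.520 to 1.66 times their untreated level with AZA and 0.731 to 1.68 times with decitabine, with medians of 0.997 and 1.01. CD3E stayed within 0.902 to 1.10 times untreated with AZA, PLCG1 within 0.947 to 1.23 and NFATC3 within 0.885 to 1.06. With AZA, ZAP70 in TLOm1 was at 84.0, 76.7 and 55.9 CPM, against 107 CPM untreated, in PF382 at 390, 384 and 345 CPM, against 304 CPM, and in HH at 140, 156 and 157 CPM, against 135 CPM. VAV1, the Rac exchange factor, was at 53.9, 45.3 and 34.4 CPM in TLOm1, against 57.9 CPM untreated, at 108, 107 and 116 CPM in PF382, against 119 CPM, and at 100, 119 and 129 CPM in HH, against 84.1 CPM. Neither gene passed the edgeR test of a difference between lines. The other 8 uncalled genes (CD3G, TRAT1, TXK, TEC, PRKCQ, NFATC1, SLA2 and UBASH3B) were low in at least 1 untreated line. Of these, SLA2 in PF382 was at 34.7, 31.2 and 32.9 CPM with AZA, against 51.1 CPM untreated, and at 48.8, 38.0 and 32.8 CPM with decitabine, against 49.9 CPM.

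The wider list of 47 other T-cell receptor pathway genes had 6 higher and 9 lower on AZA dose rank and 3 higher and 1 lower on decitabine dose rank, against 12% and 9.39% of all genes with AZA and 8.6% and 5.38% with decitabine. Its median slopes were -0.02 and 0.01, against 0.01 over all genes with each drug. IKBKG, the regulatory subunit of the NF-kappa-B kinase, rose by 0.14 per step with AZA (SE 0.02, adjusted p = 0.00244) and WAS, an actin regulator, fell by 0.17 (SE 0.03, adjusted p = 0.00467). With decitabine the coreceptor chain CD8A rose by 0.48 (SE 0.08, adjusted p = 0.00133). Of genes that receptor signals induce, 0 rose and 4 fell of 22 tested on AZA dose rank, and 3 rose and 3 fell of 21 with decitabine, beside the same shares of all genes, with median slopes of -0.04 and 0.02. MYC fell by 0.19 per step with AZA (SE 0.03, adjusted p = 0.00224) and by 0.30 with decitabine (SE 0.05, adjusted p = 0.00332), and TNFRSF9 (4-1BB) by 0.73 (SE 0.21, adjusted p = 0.0374) and 0.78 (SE 0.19, adjusted p = 0.0146). SPRY1, an inhibitor of Ras signaling, rose by 0.40 with decitabine (SE 0.11, adjusted p = 0.0249).

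Several members overlap a gene on the opposite strand in the annotation, and it is not stated whether the counting used strand. ZAP70 overlaps TMEM131 (70.5 to 107 CPM over the 24 libraries), NFATC3 overlaps ESRP2 (3.18 to 17.9 CPM), SLA overlaps TG (0.352 to 106 CPM) and LCP2 overlaps C5orf58 (0 to 0.936 CPM). Reads shared within these pairs cannot be told apart.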

How the data were processed

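RNA was measured in 24 libraries of HH, PF382 and TLOm1 cells, with sample groups taken from the labels. The authors deposited raw, unscaled read counts for 25559 genes. Tools named in the submitters' notes are STAR, DESeq2 and limma, with build GRCh37.p2 and no roles. How reads were counted, and on which annotation, is not given in the sources used here. Both poly-A selection and ribosomal depletion appear in the labels.

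Tests were run across all genes with edgeR 4.0.16 in R 4.3.3 (quasi-likelihood F test, TMM normalization, robust dispersion, filterByExpr with minimum count 10 and minimum total 15), with line as a block, or 6 blocks of line within set for effects in single lines. Benjamini-Hochberg adjustment ran over all genes tested (threshold 0.05), and standard errors were taken from the fold change and F. The fits were tested on simulated data with independent libraries and planted changes larger than most slopes called here. That test therefore does not cover doses that share a culture, or smaller slopes. TXK was filtered out of the AZA and untreated fits. Alternatives were RLE, no filter, DESeq2 1.42.0, limma-voom (limma 3.58.1), leaving out each library or line, summed doses, both untreated libraries as controls, and other CPM thresholds. The 2 untreated libraries of a line differed beyond sampling noise (chi-square per degree of freedom 25.1 to 36.2) and were kept apart. Genes given per-library values were those called in a treatment test or low in an untreated line, though not in every line and with each drug. CBL is given by slope and direction alone. Names beyond that rule, and the trace-level set in TLOm1, were chosen after values were seen. The members and lists were chosen with earlier results of these data known. Some items are not reported here.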

Additional observations from a re-analysis of the deposited data

How the results depend on the processing

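Counts of called genes among the 39 moved as follows, with main counts in parentheses and the share of all genes called under the alternative after each. With both untreated libraries of each line as controls, AZA treated against untreated gave 8 (1), 19.7%, decitabine 3 (0), 11.7%, AZA in HH 5 (0), 6.09%, AZA in PF382 6 (3), 4.23%, AZA in TLOm1 4 (2), 10.3%, decitabine in HH 1 (0), 1.59%, decitabine in PF382 2 (0), 8.57%, and the AZA difference between lines 1 (0), 0.925%. DESeq2 gave 6 for AZA treated against untreated, 6.78%, 1 for decitabine, 2.84%, 1 for AZA in HH, 1.42%, 6 for AZA in TLOm1, 5.3%, and 8 for the AZA difference between lines, 2.23%, and limma-voom gave 2 for AZA treated against untreated, 2.65%. With doses of a line summed, AZA treated against untreated gave 0, 0.00595%, and it gave 0 without HH, 0.0559%, 0 without PF382, 0.00656%, and 0 without TLOm1, 0%. Without TLOm1 the AZA dose rank gave 5 (8), 10.8%. Without HH the AZA slope per doubling gave 8 (4), 13.3%, the decitabine dose rank 3 (8), 6.32%, and the decitabine slope per doubling 0 (3), 1.21%, the last also 1 without PF382, 2.35%.

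Leaving out 1 library gave 0 to 2 for AZA treated against untreated (166 genes in all, 1 to 255 without a library), 6 to 9 for AZA dose rank, 3 to 7 for AZA per doubling (7 without HH 50 nM), 4 to 8 for decitabine dose rank (4 without PF382 untreated or any PF382 dose, 5 without HH untreated, HH 5 nM, HH 12.5 nM or TLOm1 untreated), 1 to 3 for decitabine per doubling (1 without HH 25 nM or any PF382 dose), 0 to 4 for AZA in PF382 (0 without 250 nM, 1 without 500 nM), 0 to 9 for AZA in TLOm1 (9 without 125 nM, 1 without 250 nM, 0 without 500 nM), and 0 to 1 for the AZA difference between lines (1 without HH decitabine 25 nM). The untreated contrasts gave 28 to 32, 22 to 26 and 33 to 35. The genes low in PF382 numbered 0 at 0.5 CPM and 2 at 2 CPM (1). Of the calls of single genes, 423 treatment values kept call and direction, 122 lost the call and 0 reversed. For the untreated lines 961 kept it, 29 lost it and 0 reversed. The causes were not tested. Doses are unreplicated, and levels under 0.216 CPM are at the limit of the smallest library.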
